A study of Mus musculus with 4 samples.

Results

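The genes described here are 10 transcription factors that act in the lineages of the hair follicle, namely Foxn1, Dlx3, Dlx4, Gata3, Cux1, Msx1, Msx2, Ovol1, Trps1 and Prdm1, out of 21887 protein-coding genes of the RefSeq mouse table. They were chosen by name, and the peaks of each gene were taken from its annotated span plus 50 kb on each side. Open chromatin had been profiled by ATAC-seq, in which the Tn5 transposase inserts adapters into accessible DNA, in hair follicle stem cells (HFSC) of Irx5KO mice (2 samples) and of WT mice (2 samples). Irx5 encodes an Iroquois homeodomain transcription factor, and the genotype labels name its knockout without an allele, a strain or an age. In both genotypes the cells had been sorted by flow cytometry for CD34, for a marker that is spelled CD45f, and for the absence of Ly-6A/E. The 2 samples of a genotype belong to a single list of peaks, so each value below is 1 value per genotype, there is no spread between replicates, and no test of a difference between genotypes could be made.

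The bulge of the hair follicle houses stem cells that stay quiet through much of the hair cycle. When a new hair grows, their progeny in the matrix at the base of the follicle divide and then take up the fates of the hair shaft and of the inner root sheath (IRS), the layers that mould the shaft. Foxn1, a forkhead factor mutated in nude mice, drives keratinisation of the shaft, and the homeodomain factors Msx1, Msx2 and Dlx3 work in the matrix and the differentiating shaft. Gata3, a zinc finger protein, and Cux1, a cut homeodomain repressor, are known for the IRS. Ovol1 and Prdm1 are zinc finger proteins of epidermal and appendage differentiation, and Trps1 is a repressor of the GATA type that is needed for normal hair. The question asked of the lists was which of these genes, whose products act in progeny cells, already had accessible sites in the stem cells, and whether the sites were listed in Irx5KO and WT alike.

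On the 21 standard chromosomes there were 484992 peaks for Irx5KO and 498061 for WT, with median widths of 410 bp in Irx5KO and 400 bp in WT. A peak is called shared when at least 1 bp of it overlaps a peak of the other genotype, which was so for 78.2% of those in Irx5KO and 73.4% of those in WT, and is called genotype-only otherwise. The labels give 80 M reads for each sample, while the number of reads under a peak is not part of the lists. Of the 8 HFSC markers examined (Cd34, Krt15, Itga6, Krt5, Krt14, Lgr5, Sox9 and Lhx2), 8 had a peak within 1000 bp of a gene end in both genotypes. Of all coding genes 75.2% had one in both genotypes and 14.7% in neither. Among markers of other cells a gene-end peak stood in both lists at 3 of 4 fibroblast, 1 of 4 immune, 2 of 4 melanocyte and 2 of 4 endothelial markers, in Irx5KO only at 1 fibroblast marker, and in WT only at 2 immune, 2 melanocyte and 1 endothelial marker. Of 5 markers of the shaft and IRS, 1 (Tchh) had one in both and 4 had none. The part of such cells in the results below was not tested. A listed peak also cannot tell more accessible cells from more access per cell.

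Chromatin at the transcript start was read for the 6 members that the RefSeq promoter table holds (Foxn1, Gata3, Cux1, Msx1, Msx2 and Prdm1). Gata3, Msx2 and Prdm1 had a peak over the start in both genotypes. Foxn1 and Msx1 had one over the start in Irx5KO and not in WT, and Cux1 had none in either. The starts of Foxn1, Gata3, Cux1 and Prdm1 lie inside the annotated gene span, so these classes hold for the RefSeq start only. Among the 21263 coding genes with a RefSeq start, 54.7% had it under a peak in both lists and 34.5% in neither, while 7.69% had it in the Irx5KO list alone and 3.09% in the WT list alone. The 3 of 6 members with both are thus close to the share of all genes, and 6 starts are too few to read more from it.

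The promoters of 4 of them are printed because they show the ways in which the lists met at a start: a start covered in both (Msx2 and Gata3) and a start covered in Irx5KO alone (Foxn1 and Msx1). Each runs 5′ to 3′ from 250 bases before to 50 bases after the start, on the minus strand of GRCm38.p6 (RefSeq), so the start is position 251 and upstream means higher coordinates. Capitals mark the bases that lay under a peak in Irx5KO and also in WT. The intervals are chr11:78386559-78386858 for Foxn1, chr5:37824536-37824835 for Msx1, chr13:53472731-53473030 for Msx2 and chr2:9878551-9878850 for Gata3.
Foxn1: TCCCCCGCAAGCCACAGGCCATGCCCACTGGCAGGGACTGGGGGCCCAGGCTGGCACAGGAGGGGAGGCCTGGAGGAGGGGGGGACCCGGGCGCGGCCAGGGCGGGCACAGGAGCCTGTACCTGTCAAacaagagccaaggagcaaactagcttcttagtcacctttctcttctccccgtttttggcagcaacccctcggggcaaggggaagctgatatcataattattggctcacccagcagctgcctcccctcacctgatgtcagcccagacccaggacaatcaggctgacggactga
Msx1: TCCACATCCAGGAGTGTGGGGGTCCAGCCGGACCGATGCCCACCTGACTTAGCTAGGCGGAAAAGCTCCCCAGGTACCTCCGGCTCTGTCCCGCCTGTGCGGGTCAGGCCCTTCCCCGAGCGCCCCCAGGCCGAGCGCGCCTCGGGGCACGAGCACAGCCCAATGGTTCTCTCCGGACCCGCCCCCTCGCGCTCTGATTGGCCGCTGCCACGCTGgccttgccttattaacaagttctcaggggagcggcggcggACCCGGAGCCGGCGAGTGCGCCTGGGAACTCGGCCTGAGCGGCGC
Msx2: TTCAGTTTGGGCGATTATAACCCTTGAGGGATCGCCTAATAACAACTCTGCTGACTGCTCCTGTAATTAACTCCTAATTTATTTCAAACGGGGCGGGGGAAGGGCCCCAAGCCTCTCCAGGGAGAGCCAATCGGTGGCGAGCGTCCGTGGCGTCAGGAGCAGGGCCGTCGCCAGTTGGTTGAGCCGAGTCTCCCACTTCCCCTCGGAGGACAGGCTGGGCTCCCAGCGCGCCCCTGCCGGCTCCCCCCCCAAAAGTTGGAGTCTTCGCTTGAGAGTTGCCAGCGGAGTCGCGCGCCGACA
Gata3: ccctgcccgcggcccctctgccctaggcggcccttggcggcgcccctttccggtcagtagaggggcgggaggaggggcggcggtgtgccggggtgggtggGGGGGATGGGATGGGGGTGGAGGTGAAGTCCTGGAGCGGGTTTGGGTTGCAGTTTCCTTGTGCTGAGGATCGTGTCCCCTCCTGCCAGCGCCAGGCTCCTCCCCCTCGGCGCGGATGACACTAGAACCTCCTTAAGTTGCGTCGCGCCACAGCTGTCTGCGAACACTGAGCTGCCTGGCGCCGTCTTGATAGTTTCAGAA

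In the Foxn1 promoter, 258 of 300 bases lay under an Irx5KO peak and 128 under a WT peak, and the WT peak ended upstream of the start. The Irx5KO peak (chr11:78386601-78387010) ran from -402 to 7 bp relative to the start, and the WT peak (chr11:78386731-78386950) from -342 to -123 bp. Both were low within their lists. Their score, the authors' value per peak, had percentile 19.6 in Irx5KO and 13.7 in WT, where 50 marks the middle of the list. Another Irx5KO peak, 258 to 487 bp downstream, had no WT counterpart. The RefSeq start of Foxn1 (chr11:78386608) lies inside the annotated span, and the upper end of that span (chr11:78386783) lay under a peak in both genotypes.

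The start of Msx1 fell into a narrow gap between 2 WT peaks. In Irx5KO 1 peak (chr5:37824321-37824860, percentile 45.8) covered all 300 promoter bases. WT had a peak from -395 to -36 bp (percentile 22.05) and another from 5 to 974 bp (percentile 38.9), which left 40 bases around the start uncovered. Counting a peak within 500 bp of the start instead of over it put 5 of 6 members in both lists, and Cux1 in Irx5KO only. The share of all coding genes at this wider setting is not given, so the count is not read as a trait of the members.

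Msx2 had 1 peak over its start in each genotype with nearly the same borders, chr13:53472351-53473050 in Irx5KO and chr13:53472391-53473060 in WT. Its percentile was 76.0 in Irx5KO and 56.3 in WT. It was the only one of the 6 starts under a peak of the upper 50% by score in both genotypes. Prdm1, whose RefSeq start (chr10:44458748) lies inside the annotated span, had a peak from -652 to 237 bp in Irx5KO (percentile 64.3) and from -312 to 227 bp in WT (percentile 46.6).

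Gata3 also starts inside its annotated span, at chr2:9878600, and its start lay under a peak from the lower 50% of the list in both genotypes. The percentile was 35.7 in Irx5KO and 38.3 in WT. A higher peak lay further upstream: it ran from -2070 to -541 bp in Irx5KO (1530 bp wide, percentile 81.0) and from -1310 to -471 bp in WT (840 bp wide, percentile 70.4). In Irx5KO a low peak from -500 to -291 bp (percentile 10.35) stood between it and the start. Cux1 had the bare RefSeq start, with the nearest peak 390 bp upstream in Irx5KO (percentile 19.6, Irx5KO-only) and 1280 bp upstream in WT (percentile 19.4). This start also lies inside the annotated span. That WT peak covered the upper end of the span (chr5:136567590), and Irx5KO had shared peaks at chr5:136566991-136567450 and 0.011 kb above the end. The plot of peaks around the starts gives these borders to scale.

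**Figure D1:**
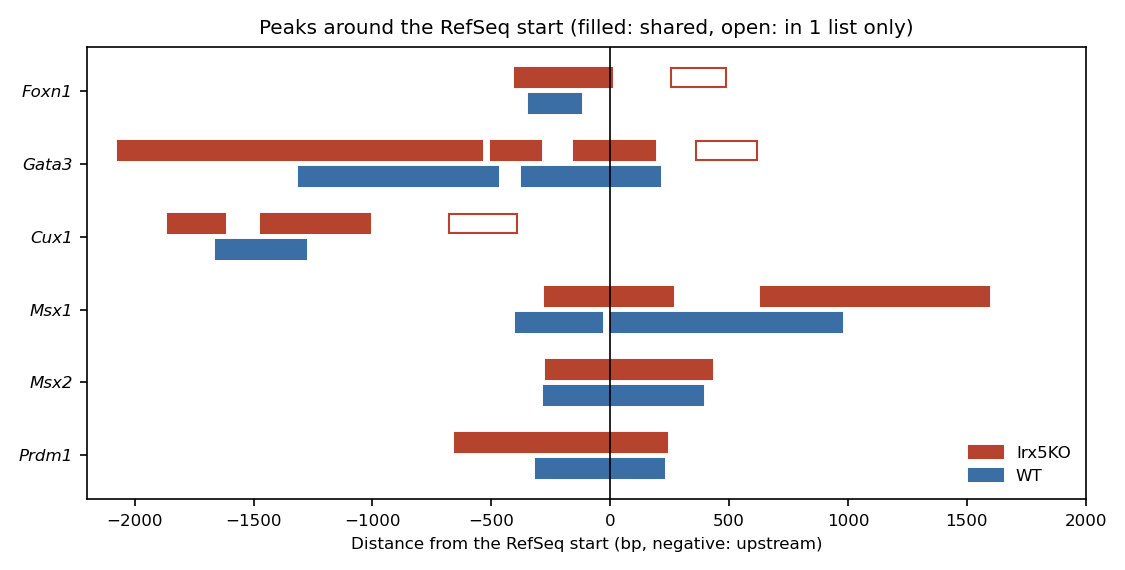
Peaks around the RefSeq start of the 6 members in the promoter table, as distance from the start in bp (negative values are upstream), with the Irx5KO list above the WT list for each gene; filled bars are shared and open bars genotype-only. Gata3, Msx2 and Prdm1 have a peak over the start in both genotypes, Foxn1 and Msx1 in Irx5KO alone, and the 40 uncovered WT bases at Msx1 show as a narrow gap.

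The 6 promoters had 59.7% (Prdm1) to 70.0% (Msx1) GC, against a median of 56.3% and quartiles of 48.3% and 64.7% over coding genes, so Prdm1, Msx2 and Foxn1 lay between the quartiles and Cux1, Gata3 and Msx1 above them. They held 8 (Foxn1) to 29 (Msx1) CpG dinucleotides, against a median of 13 and quartiles of 4 and 24. Cux1, the member without a peak over its start, held 25. Motifs were searched as exact letters on both strands, with the share of all 32851 RefSeq promoters of the same length that hold a match. The Iroquois motif ACANNTGT stood in 1 of 6, at Gata3, where ACAGCTGT begins at position 249 and spans the start, in bases covered in both genotypes; 7.38% of all promoters hold one. The match contains an E-box (CANNTG), a motif present in 5 of 6 members and in 72.3% of all promoters, so both motifs share letters there.

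The homeodomain core TAATTA stood in 2 of 6, in Foxn1 at position 222 and in Msx2 at position 64, against 5.29% of all promoters. At Msx2 it lay under peaks of both genotypes, and at Foxn1 it lay in the stretch that was covered in Irx5KO and not in WT. The AP-1 motif TGANTCA stood in 1 of 6 (Prdm1, position 203; 7.81% of all). CCAAT stood in 4 of 6 (37.4% of all) and the SP/KLF motif GGGCGG in 4 of 6 (35.7%). No match was found for the LEF/TCF motif CTTTGAT (3.73%), the GATA motif AGATAA (11.2%) or TATAAA (13.6%). A match describes letters in these windows, not binding.

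For all 10 genes the wider measure was a peak within 1000 bp of either end of the annotated span, since the gene table gives neither strand nor exons. Such a peak was listed in both genotypes at 8 of 10 members (Foxn1, Dlx3, Cux1, Msx1, Msx2, Ovol1, Trps1 and Prdm1), and the same held for 75.2% of all coding genes. Dlx4 had one in Irx5KO only, a class with 6.07% of all genes, no member had one in WT only (3.99%), and Gata3 had one in neither (14.7%), its covered start being inside the span. The count of 8 of 10 is near the share of all genes. With the score limited to the upper 50% of each list, 2 of 10 members kept a gene-end peak in both genotypes (Msx2 and Prdm1, against 40.1% of all genes), 2 had one in Irx5KO only (Dlx4 and Ovol1) and 6 had none (45.5% of all). With the upper 10%, 10 of 10 had none, as did 88.3% of all genes, and 0 had one in both genotypes, against 6.19% of all. The gene body held a peak at 10 of 10 members in Irx5KO and 8 of 10 in WT, without Dlx4 and Ovol1, against 89.2% of all genes in Irx5KO and 88.1% in WT.

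Within the joined windows of the 10 genes, 221 peaks were listed for Irx5KO and 190 for WT, each peak counted once. Of these, 138 Irx5KO peaks (62.4%, 95% Wilson interval 55.9 to 68.6) and 137 WT peaks (72.1%, 65.3 to 78.0) were shared. These intervals cover counting error only. Over the windows of all coding genes, the shared part was 76.1% in Irx5KO and 73.5% in WT. The remainder was 83 Irx5KO-only and 53 WT-only peaks, so Irx5KO-only peaks made up 61.0% (52.6 to 68.8) of the genotype-only peaks here, against 47.15% over all coding genes. Gene by gene, 8 of 10 members had more Irx5KO-only than WT-only peaks, which 46.6% of all genes had, 1 had more WT-only (Msx1; 41.3% of all genes) and Prdm1 had equal numbers. The windows of Dlx3 and Dlx4 overlap, so they do not count as separate observations.

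**Figure D2:**
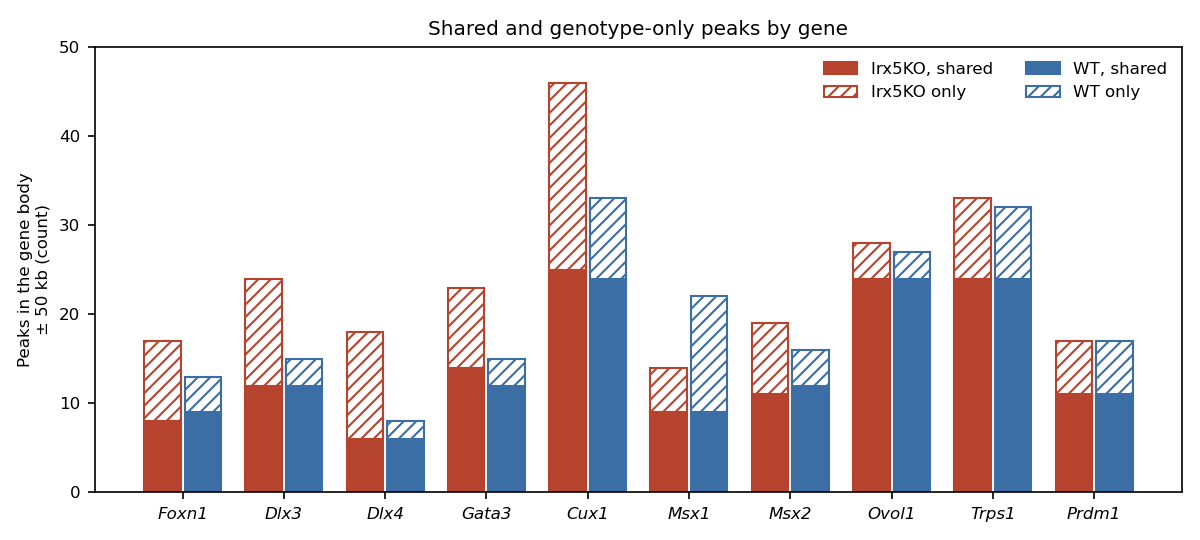
Number of peaks in the gene body and 50 kb on each side for the 10 genes, with Irx5KO left of WT, solid bars for shared and hatched bars for genotype-only peaks (1 pooled list per genotype, so no error bars). The shared numbers of a gene differ by at most 2 between genotypes, and the hatched part sets most of the difference, with Cux1 highest at 46 in Irx5KO and 33 in WT and Msx1 the gene with more in WT.

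Foxn1 spans chr11:78357577-78386783. Its window held 17 Irx5KO and 13 WT peaks, of which 9 and 5 lay in the gene body in Irx5KO and WT. Of the body peaks, 6 were Irx5KO-only and 2 were WT-only. The highest body peak was shared, chr11:78384281-78384500 in Irx5KO (percentile 80.1) and chr11:78384321-78384550 in WT (59.45), inside the gene near its start. The highest Irx5KO-only peak, chr11:78354071-78354430 (percentile 64.6), lay 3.15 kb below the gene, past its 3′ end. The highest peak of the whole window (percentile 93.7 in Irx5KO and 92.8 in WT) lay 27.1 kb away within the span of Pigs, 1 of 5 other coding genes in this window, so it cannot be assigned to Foxn1 from position.

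Msx1 (chr5:37820491-37824585) had no other coding gene in its window, and it was the member with the most WT-only peaks. Irx5KO had 14 peaks and WT had 22, with 9 shared in each list, 5 Irx5KO-only and 13 WT-only. Of the WT-only peaks, 9 lay above the gene, which is its upstream side. The highest of them, chr5:37835481-37835740, was 10.9 kb above the gene with percentile 70.8, and the median percentile of the 13 was 11.25. Most were therefore among the lowest peaks of the WT list. Some WT-only peaks had an Irx5KO-only peak close by that did not overlap them. Beside the highest WT-only peak, Irx5KO had one at chr5:37835911-37836250 (percentile 21.45), 11.3 kb above the gene. Both peaks count as genotype-only because the rule asks for an overlap of at least 1 bp. The highest shared peak lay 22.0 kb above the gene in Irx5KO, at chr5:37846621-37846830 (percentile 74.1), and at chr5:37846331-37846830 in WT (74.7).

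Msx2, the paralog of Msx1 that acts upstream of Foxn1 in the shaft, spans chr13:53466881-53472780. Its window held 19 Irx5KO peaks, 8 of them genotype-only, and 16 WT peaks, 4 of them genotype-only. The order was thus the reverse of that at Msx1. Upstream of the gene, 6 Irx5KO-only peaks faced 1 WT-only peak, and the highest was chr13:53488181-53488480 (percentile 67.9), 15.4 kb above the gene. A shared peak 10.9 kb above the gene was the highest of the window in both genotypes, at percentile 78.6 in Irx5KO (chr13:53483721-53484240) and 80.1 in WT (chr13:53483741-53484310).

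Dlx3 (chr11:95120117-95125296) and its paralog Dlx4 (chr11:95140447-95146294) are neighbours, 15.15 kb apart. Together their windows held 24 Irx5KO peaks and 15 WT peaks, with 12 shared in each list, 12 Irx5KO-only and 3 WT-only. All 18 Irx5KO and 8 WT peaks in the window of Dlx4 also lay in that of Dlx3. The highest peak was shared and stood between Dlx3 and Itga3, an integrin gene, at chr11:95090001-95090270 in Irx5KO (percentile 89.3) and chr11:95089981-95090260 in WT (70.9), 29.9 kb below Dlx3. At the lower end of Dlx3 a low peak was shared, with percentile 25.7 in Irx5KO and 19.4 in WT.

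Dlx4 was the only member with a gene-end peak in Irx5KO alone. Its body held 2 Irx5KO peaks and 0 WT peaks. At its upper end Irx5KO had a peak at chr11:95145961-95146190 with percentile 8.17 and another 0.897 kb above the gene at chr11:95147191-95147480 with percentile 67.6, and WT had none. The second of these was the highest Irx5KO-only peak of the Dlx windows, while the other 11 had percentiles from 1.48 to 33.0. For WT the highest peak in the window of Dlx4 was at percentile 47.6 and lay 48.4 kb from the gene.

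Of the IRS factors, Gata3 (chr2:9857078-9887953) had 23 Irx5KO and 15 WT peaks, 9 and 3 of them genotype-only in Irx5KO and WT. Its body held 13 peaks in Irx5KO and 7 in WT, most of them around the start. None of its genotype-only peaks reached the middle of its list: the highest was at percentile 33.7 in Irx5KO and 27.3 in WT. The highest WT peak of the window was shared, chr2:9904801-9905220 (82.9; 71.6 for its Irx5KO counterpart), 16.85 kb above the gene and upstream of it. It lay nearer to Taf3 (9.33 kb), another coding gene in this window, so it cannot be assigned to Gata3 from position.

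Cux1 is a long gene (319.5 kb, chr5:136248135-136567590) and had the most peaks of the members, 46 in Irx5KO and 33 in WT, of which 26 and 19 lay in its body in Irx5KO and WT. Per length it was sparse, with 4.87% of the window covered in Irx5KO and 3.84% in WT. Its highest Irx5KO peak, chr5:136255081-136255640, had percentile 99.3, and the WT peak at the same place, chr5:136255001-136255650, had 97.4. Both lie in the gene body near its 3′ end. In WT the highest peak was chr5:136589501-136590020 (99.1; 96.6 for the Irx5KO counterpart), 21.9 kb above the gene on its upstream side. Cux1 also had the most Irx5KO-only peaks, 21, against 9 WT-only peaks, with the highest at percentile 67.9 in Irx5KO and 49.9 in WT. Strong peaks at sites other than the start were thus present in both genotypes at the member whose RefSeq start was bare.

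Ovol1, known from mouse work as a target of LEF1 and β-catenin, spans chr19:5549137-5560575 and had the largest shared share. Of 28 Irx5KO peaks 24 were shared and of 27 WT peaks 24 were shared. It was also the member with the most covered window, 14.6% in Irx5KO and 12.0% in WT, and the only one above the median gene, which had 10.3% in Irx5KO and 9.56% in WT. Its window holds 5 other coding genes. The peak nearest to Ovol1 among the highest was chr19:5541061-5542130 in Irx5KO (percentile 96.1, 7.01 kb below the gene) and chr19:5541051-5541870 in WT (95.5, 7.27 kb below). At the upper end a shared peak had percentile 59.2 in Irx5KO and 46.9 in WT, and in Irx5KO it reached over both Ovol1 and its neighbour Ap5b1.

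Trps1 (chr15:50654757-50890631, with no other coding gene in its window) was listed nearly alike in both genotypes. It had 33 Irx5KO and 32 WT peaks, with 24 shared in each list, 9 Irx5KO-only and 8 WT-only. Its highest peak was 6150 bp wide in Irx5KO and 6160 bp wide in WT (percentiles 97.9 and 98.8 in Irx5KO and WT), 10.7 kb below the gene, and a 7230-bp peak stood next to it in both lists. In the windows of the 10 members, 3 of 221 Irx5KO and 3 of 190 WT peaks were wider than 2000 bp, and the share over all peaks is not given. Over the whole lists, peaks of the upper 10% had a median width of 1880 bp in Irx5KO and 2060 bp in WT. Without peaks wider than 2000 bp, 4.56% of the Trps1 window was covered in Irx5KO and 4.21% in WT, in place of 8.54% in Irx5KO and 8.20% in WT. The peak at its upper end was shared, at percentile 41.8 in Irx5KO and 35.1 in WT.

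Prdm1 (chr10:44437174-44528558), which encodes the repressor Blimp1, had 17 peaks in each genotype, with 11 shared and 6 genotype-only in each. The positions of the genotype-only peaks differed: 5 of the 6 Irx5KO-only peaks lay below the gene and 0 above it, while 4 of the 6 WT-only peaks lay above it and 0 below. Its highest peak was in the body and shared, with percentile 76.5 in Irx5KO (chr10:44498031-44498580) and 87.5 in WT (chr10:44498151-44498690). The highest WT-only peak of all 10 genes lay in the Prdm1 body, at chr10:44468281-44468480, with a width of 200 bp and percentile 72.8, while its highest Irx5KO-only peak had percentile 43.3.

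**Figure D3:**
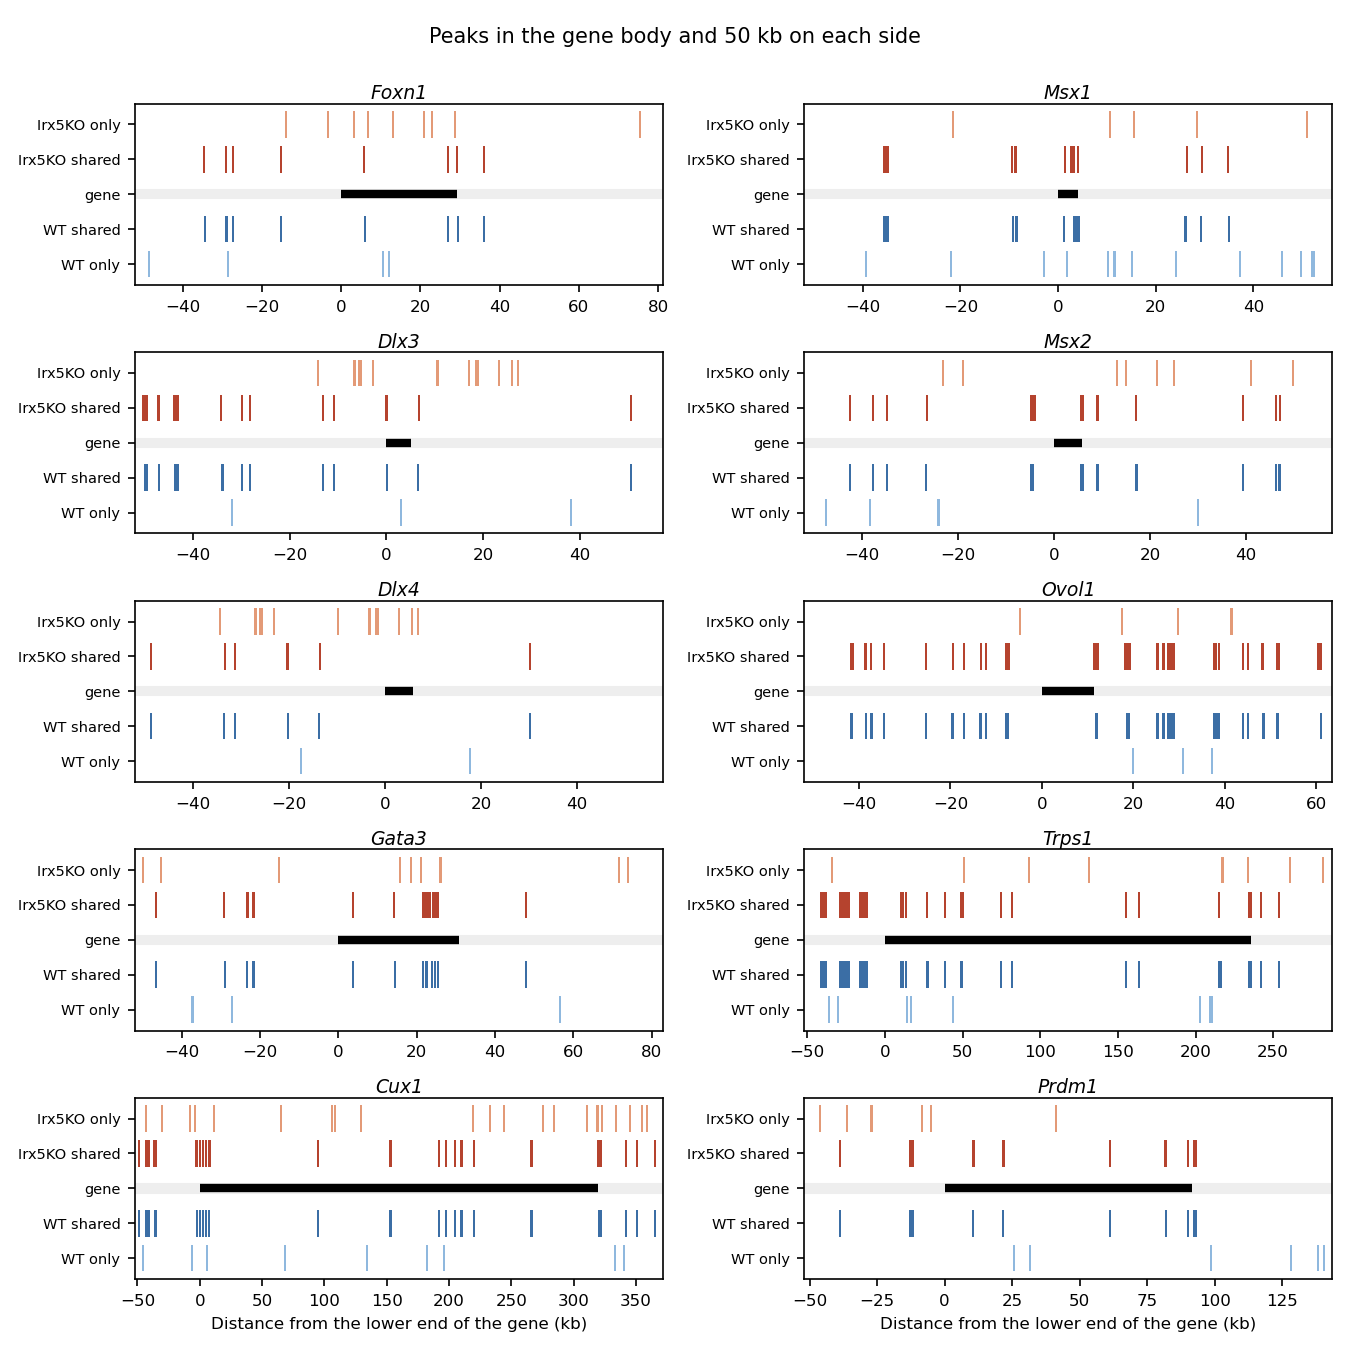
Positions of every peak in the window of each gene, as distance from the lower end of the gene in kb; the lanes from top to bottom are Irx5KO-only, Irx5KO shared, the gene (black bar), WT shared and WT-only, and narrow peaks are drawn at a minimum width. At Msx1 the lowest lane is the fuller one with 13 WT-only peaks, at Cux1 the top lane holds 21 Irx5KO-only peaks, and the panels of Dlx3 and Dlx4 overlap.

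Genotype-only peaks ranked below shared peaks, as they did in the lists as a whole. Shared peaks of the members had a median percentile of 49.8 in Irx5KO and 45.2 in WT, against 60.2 in Irx5KO and 62.6 in WT over all shared peaks. Genotype-only peaks of the members had 16.0 in Irx5KO and 16.5 in WT, against 15.5 in Irx5KO and 17.95 in WT over all genotype-only peaks. Of the 83 Irx5KO-only peaks 11 were in the upper 50% of their list, and of the 53 WT-only peaks 5 were. No genotype-only peak of the members was in the upper 10%. The shares over all genotype-only peaks are not given, so these counts are not read as a trait of the members.

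Taken over all their peaks, the members ranked low. In Irx5KO 36.2% of the 221 peaks were in the upper 50% and 5.43% in the upper 10%, against 47.0% and 9.47% for peaks in the windows of all coding genes. In WT 35.3% of 190 peaks were in the upper 50% and 4.21% in the upper 10%, against 47.0% and 9.30% for all windows. A peak of the upper 10% stood at the same 4 of 10 members in Irx5KO and in WT (Foxn1, Cux1, Ovol1 and Trps1), while 77.9% of all coding genes had one in Irx5KO, 74.3% in WT and 71.0% in both. The best peak of a member had a median percentile of 85.1 in Irx5KO and 85.2 in WT, against 96.4 and 96.1 for all coding genes in Irx5KO and WT. With peaks up to 2000 bp wide the member medians stayed the same, and those of all genes were 93.5 in Irx5KO and 92.2 in WT. Peaks per 100 kb had a median of 15.2 in Irx5KO and 10.8 in WT, against 16.25 and 15.7 for all genes. Fewer than the median gene were found at 5 of 10 members in Irx5KO and 8 of 10 in WT. The covered share of the window had a median of 6.28% in Irx5KO and 4.75% in WT, against 10.3% in Irx5KO and 9.56% in WT for all genes, and 9 of 10 members were below the median gene in each list. In 9 of 10 members coverage was higher in Irx5KO than in WT, which was so for 58.2% of all genes.

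Sites in the upper 50% of both lists were counted for each gene, without a count over all coding genes beside them. Cux1 had 14 of them, Ovol1 13 and Trps1 12. Foxn1, Gata3, Msx2 and Prdm1 had 3 each, Dlx3 and Msx1 had 2 each and Dlx4 had 0. The windows of Cux1 and Trps1 are the longest among the members and that of Ovol1 holds 5 other coding genes, so the 3 high counts do not compare per length. Some sites were nearer to another gene: those of Foxn1 included a site within Pigs and a site nearest to Slc13a2.

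**Figure D4:**
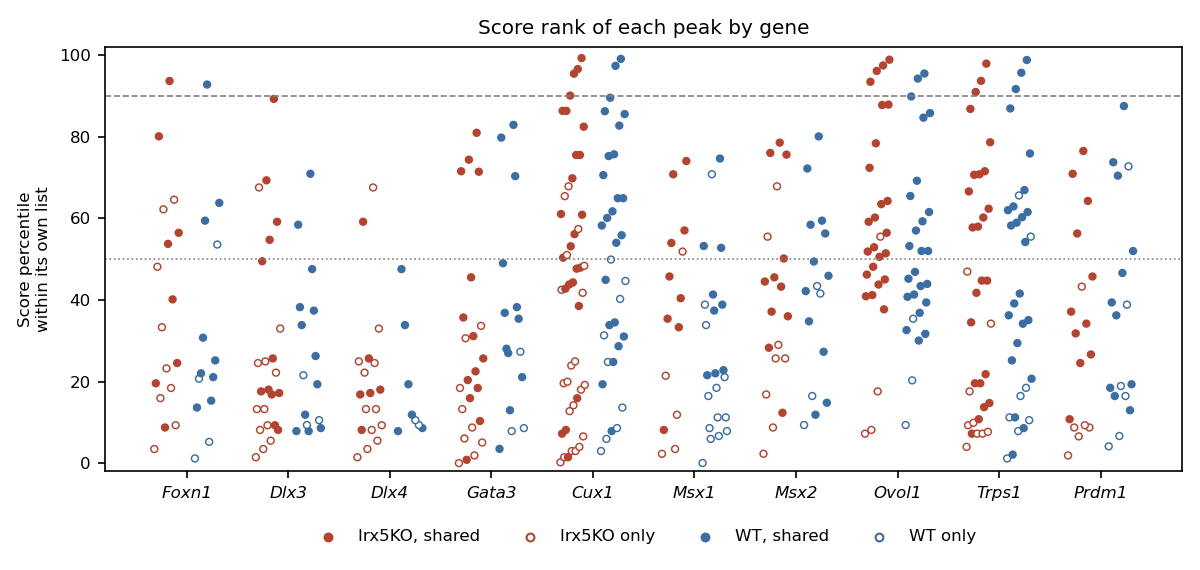
Percentile of the authors' score of each peak within its own list (y axis, 0 to 100) for the 10 genes, with Irx5KO left of WT, filled points for shared and open points for genotype-only peaks; the dotted line is the middle of a list and the dashed line its upper 10%. Points above the dashed line belong to Foxn1, Cux1, Ovol1 and Trps1 and are all filled.

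Lists of other genes put these numbers in place. Of 10 factors of the stem cells themselves (such as Sox9), both lists had a gene-end peak at 8, the Irx5KO list alone at 1 (Foxp1) and neither list at 1 (Runx1), the same counts as among the 10 hair lineage factors. Of 10 factors of other organs (such as Myod1, of muscle), 5 had one in both and 3 in neither, and Pdx1 had one in Irx5KO alone and Gata1 in WT alone. Of 12 other hair regulators (such as Hoxc13) 11 had one in both, and Shh had one in WT only. The hair shaft and IRS structural genes (such as Krt25, a keratin of the IRS) differed from the factors in count: of 18, 4 had one in both (Krt81, Krt86, Tchh and Tgm3) and 12 in neither. Genotype-only peaks numbered 129 Irx5KO-only and 74 WT-only at the stem cell factors, 107 Irx5KO-only and 72 WT-only at the other hair regulators, 64 Irx5KO-only and 27 WT-only at the structural genes, and 66 Irx5KO-only and 67 WT-only at the factors of other organs. Among the cell type markers there were 53 Irx5KO-only and 22 WT-only peaks for HFSC, 24 and 11 for shaft and IRS, 35 and 16 for melanocytes, 34 and 28 for endothelial cells, 26 and 25 for immune cells and 25 and 27 for fibroblasts in Irx5KO and WT. Larger Irx5KO-only numbers thus occurred at lists of hair genes and also at melanocyte markers. The sum was larger at endothelial markers too, but 1 of 4 genes there had more Irx5KO-only peaks and 2 had more WT-only peaks. The lists of hair genes are not separate observations. All shaft and IRS markers are also structural genes, Sox9 and Lhx2 are both stem cell factors and HFSC markers, and Lgr5 is an HFSC marker and a hair regulator. The same peaks therefore count in more than 1 list.

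**Figure D5:**
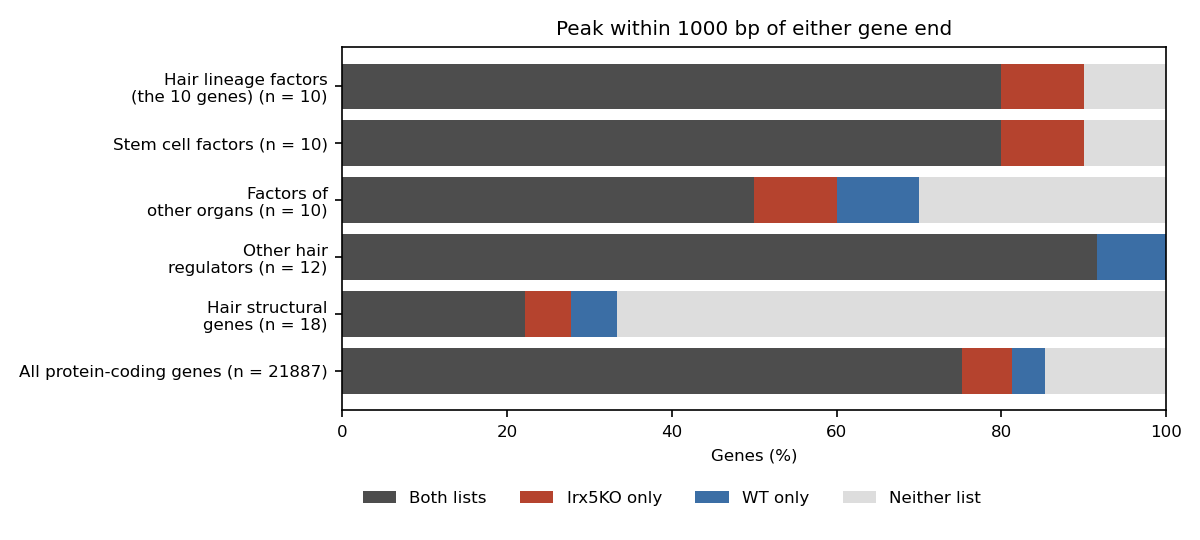
Share of genes (x axis, %) with a peak within 1000 bp of either gene end in both lists, in one genotype alone or in neither, for the 10 hair lineage factors, 4 comparison lists and all 21887 protein-coding genes. The hair lineage factors and the stem cell factors show 8 of 10 in both, against 75.2% of all genes, and the structural genes show 12 of 18 in neither.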

How the data were processed

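Per the labels, ATAC-seq was done on sorted HFSC of Irx5KO and WT mice, and each deposited list belongs to both samples of a genotype. The submitters' processing notes name build mm10, Genrich 0.6, Bowtie2, cutadapt 2.9, FastQC, ChIPseeker 1.24.0 and deepTools 3.4.2. What each did, how duplicates were treated and whether reads were shifted for Tn5 is not given in the sources used here.

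The deposited score is the authors' value per peak and was ranked within a list only. The signal, p-value and q-value columns are 0 in all 486180 Irx5KO and 499794 WT entries. Entries off the standard chromosomes (1188 in Irx5KO and 1733 in WT) were left out.

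Gene spans and promoters came from RefSeq (GRCm38, the same assembly as mm10). Of the 10 members, 6 were in the promoter table; Dlx3, Dlx4, Ovol1 and Trps1 were not. Peaks within 50 kb were counted, shared at an overlap of at least 1 bp. Single peaks are named if at a gene end or start, or highest of a member in a list, overall or among genotype-only peaks; body peaks, upper 10% peaks and other shared sites named beside these were added after their values were seen. The members, lists and named rules were chosen with earlier results of these data known. The code was tested on simulated data, and bedtools 2.31.1 gave the same counts in 10 of 10 windows. Python 3.11.15, numpy 2.4.6, pandas 2.3.3, scipy 1.17.1 and matplotlib 3.10.9 were used.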

Additional observations from a re-analysis of the deposited data

How the results depend on the processing

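No paired analysis was possible because the 2 samples of a genotype share 1 pooled list, and for the same reason neither sample could be left out. Depth per peak is not in the lists and the score is ranked within a list only, so no difference between genotypes has an error other than counting. Of the summary results under the alternatives, 59 stayed within the limits set for them and 30 moved. These numbers do not measure robustness. Leaving out the window of Dlx4 could change nothing, since all its peaks also lie in that of Dlx3, and peak counts depend on window length. The median percentile of the best peak was nearly equal between genotypes (85.1 in Irx5KO and 85.2 in WT) but 76.3 in Irx5KO and 64.9 in WT with the gene body only, where 10 members had a peak in Irx5KO and 8 in WT. Windows of 10 kb held 51 peaks in Irx5KO alone and 23 in WT alone, and their median coverage was 9.77% in Irx5KO and 3.70% in WT (6.28% and 4.75% in Irx5KO and WT with 50 kb), and windows of 100 kb gave 127 Irx5KO-only and 91 WT-only peaks. Values over all genes are not given for windows of 10 kb and 100 kb. Sharing at 50% of the peak lowered the shared share of Irx5KO peaks to 52.04%. In the upper 50% by score 11 Irx5KO-only and 5 WT-only peaks were left, with 86.25% of Irx5KO and 92.5% of WT peaks shared. In the upper 10% there were 0 Irx5KO-only and 0 WT-only peaks, and 100% were shared in Irx5KO and 100% in WT. No share over all peaks is given for these score limits. Gene ends in the upper 50% were covered in both lists at 2 members, in Irx5KO only at 2 and in neither at 6, and in the upper 10% at 0, 0 and 10. RefSeq starts in the upper 50% were covered in both at 1, in Irx5KO only at 1 and in neither at 4, and in the upper 10% at 0, 0 and 6. The shares of all RefSeq starts at these score limits are not given, so the counts are not read as a trait of the members. A peak within 500 bp of the start was found in both at 5, in Irx5KO only at 1 and in neither at 0, with no share of all genes to compare. The motif TAATTA lay under peaks of both lists in 1 member. Irx5KO-only peaks outnumbered WT-only peaks under each alternative but the upper 10%, as also when sharing was extended to peaks within 250 bp, an alternative chosen after seeing the data (77 Irx5KO-only and 45 WT-only).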
